A study of Rattus norvegicus with 6 samples.

Results

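Solute carriers are membrane proteins that move amino acids, sugars, ions, metals, vitamins and metabolites across the plasma membrane and the membranes of organelles. Their gene names give a family number after Slc and a member after the letter that follows. MicroRNAs (miRNAs) pair through their seed, bases 2 to 8 counted from the 5' end, with sites in messenger RNAs and lower translation or stability of these messages. In the heart, solute carriers exchange sodium for protons and calcium, driven by the sodium gradient that ion pumps maintain, and supply glucose, lactate, carnitine and amino acids. No messenger RNA or protein was measured here, so every statement about a solute carrier below is about a predicted site and about the signal of the miRNA that it would pair with.

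The genes described are the 104 distinct symbols that begin with Slc and a digit in the authors' deposited table of targets predicted by miRanda, out of 4260 genes in all (2.44%). The rule used the symbols and no measured value. These 104 genes formed 151 pairs of a miRNA and a gene, of 6133 in all, with 155 predicted sites of 6476. In the RefSeq gene table of rat assembly GRCr8, 103 symbols were found as such and Slc24a6 was found as an older name of Slc8b1. One symbol taken in by the rule, Slc7a6os, belongs to a gene on the opposite strand of Slc7a6 and does not name a transporter.

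The study compared cardiac stem cells (CSCs) from hearts of Sprague Dawley rats aged 4 weeks in 2 groups of 3 arrays. The group CSC+Exo was grown for 3 days in medium with exosomes, small extracellular vesicles, that had been precipitated with a polymer reagent from bone marrow mesenchymal stem cells (MSCs) at passage 4. The group CSC received no exosomes, and both groups carry no other agent or allele according to the labels. No group received a precipitate free of vesicles. Whether replicate arrays stem from separate cultures is not stated in the labels, and the p-values therefore reflect array-to-array spread that could be technical alone. The cell type was not checked against marker miRNAs, because the files pair only the 22 miRNAs of the authors' list with names. The targets were predicted for these 22, which the authors had listed for an unadjusted p under 0.05 on the same 6 arrays. By mean signal 5 of them were lower and 17 higher in CSC+Exo than in CSC. With 3 arrays a group, the precision of these signals is limited by the number of arrays and by the spread between them.

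The miRNAs that held most of the solute carriers are shown first with their seeds, which weigh on the predicted sites without deciding them alone. The sequences are those of the authors' table, 5' to 3', with the seed in capitals. The first 5 had lower and the last 5 higher mean signals in CSC+Exo.
miR-326-5p: gGGGGCAGggccuuugugaa
miR-760-3p: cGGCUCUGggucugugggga
miR-328a-5p: gGGGGGCAggaggggcuca
miR-207: cUUCUCCUggcucuccucccuuu
miR-702-5p: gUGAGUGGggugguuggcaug
miR-330-3p: gCAAAGCAcagggccugcagaga
miR-500-5p: aAUCCUUGcuaucugggugcuuag
miR-503-5p: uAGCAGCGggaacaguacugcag
miR-362-5p: aAUCCUUGgaaccuaggugugaau
miR-532-5p: cAUGCCUUgaguguaggacugu
The seeds of miR-362-5p and miR-500-5p were identical, and the seed of miR-328a-5p was that of miR-326-5p shifted by 1 base, so that each of these 2 pairs can be predicted for the same stretch of a gene. miR-181b-5p and miR-181c-5p, not shown, also had identical seeds, but 202 and 75 predicted genes, of which 4 and 0 were solute carriers. GC content was 65.0% in miR-326-5p, 70.0% in miR-760-3p, 78.9% in miR-328a-5p, 61.9% in miR-702-5p and 56.5% in miR-207. In the 5 higher ones shown it ran from 41.7% in miR-362-5p to 60.9% in miR-330-3p. The higher miR-106b-3p, not shown, had 63.6%. miR-500-5p, miR-362-5p and miR-532-5p lay close together on the plus strand, within chrX:27323157-27334642 in the authors' coordinates, for which no build is stated.

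Solute carriers were predicted for 17 of the 22 miRNAs. miR-326-5p and miR-760-3p had 21 each, miR-328a-5p had 18, miR-207 had 16 and miR-702-5p had 11. Among the miRNAs higher in CSC+Exo, miR-330-3p had 13, miR-500-5p had 9, miR-503-5p had 8, and miR-362-5p and miR-532-5p had 6 each. miR-106b-3p had 5, miR-181b-5p and miR-362-3p had 4 each, miR-147 and miR-18a-5p had 3 each, miR-542-5p had 2 and miR-201-5p had 1. The other 5, let-7i-3p, miR-181c-5p, miR-350, miR-501-3p and miR-872-3p, had 0 solute carriers among 395 predicted pairs. Among the 17 miRNAs that had any, these numbers broadly followed the total number of genes predicted for each miRNA. The 5 with 0 had 25 to 139 predicted genes each, while miR-201-5p and miR-147 had 1 and 3 solute carriers among 59 and 79. At the share over all pairs, 2.46%, so few genes would hold few solute carriers. These counts of 0 were not tested against that share. Solute carriers made up 2.46% of all pairs, and among the 17 miRNAs that had any they made up from 1.67% of the genes of miR-18a-5p to 3.92% of those of miR-532-5p.

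**Figure D1:**
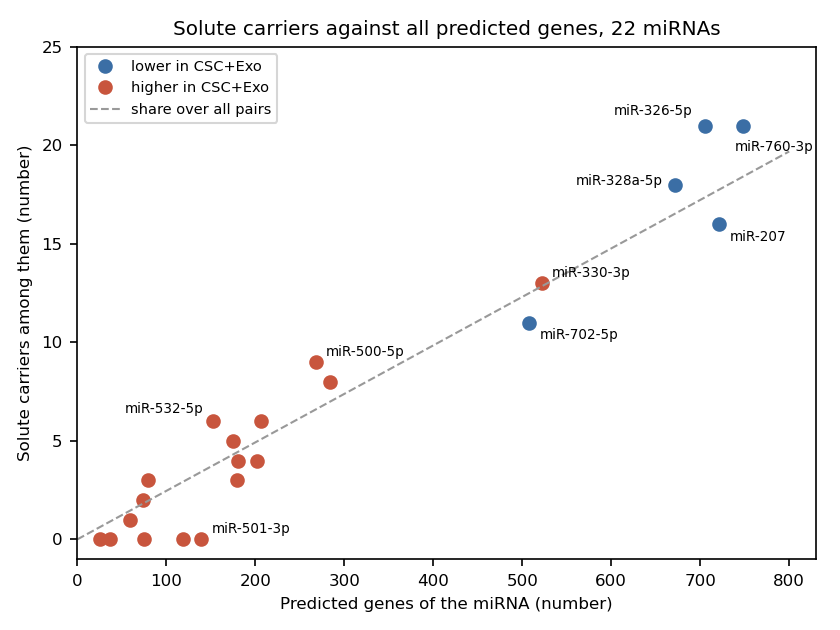
Number of solute carriers (vertical axis) against the number of all predicted genes (horizontal axis) for each of the 22 listed miRNAs, coloured by the direction of the miRNA in CSC+Exo. The dashed line is the share over all pairs, 2.46%; the 5 miRNAs lower in CSC+Exo have between 508 and 748 predicted genes and between 11 and 21 solute carriers, and miR-501-3p has 0 among 139.

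The 5 miRNAs lower in CSC+Exo held 87 of the 151 solute carrier pairs (57.6%), against 54.7% of pairs over the whole table, and the 17 higher miRNAs held 64. Among sites at or above the median score of the table, the share of the lower miRNAs was 49.4%, against 52.1% over the table. Pairs with the lower miRNAs alone were listed for 54 solute carriers (51.9%, against 46.01% of all genes), with higher miRNAs alone for 35 (33.7%, against 36.9%), and with both for 15 (14.4%, against 17.1%). These shares lie near those of the table, and no test was made of them because pairs of 1 miRNA share its seed. Most solute carriers, 75 (72.1%, against 69.3% of all genes), were listed for 1 miRNA, 21 for 2 miRNAs and 8 for at least 3.

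**Figure D2:**
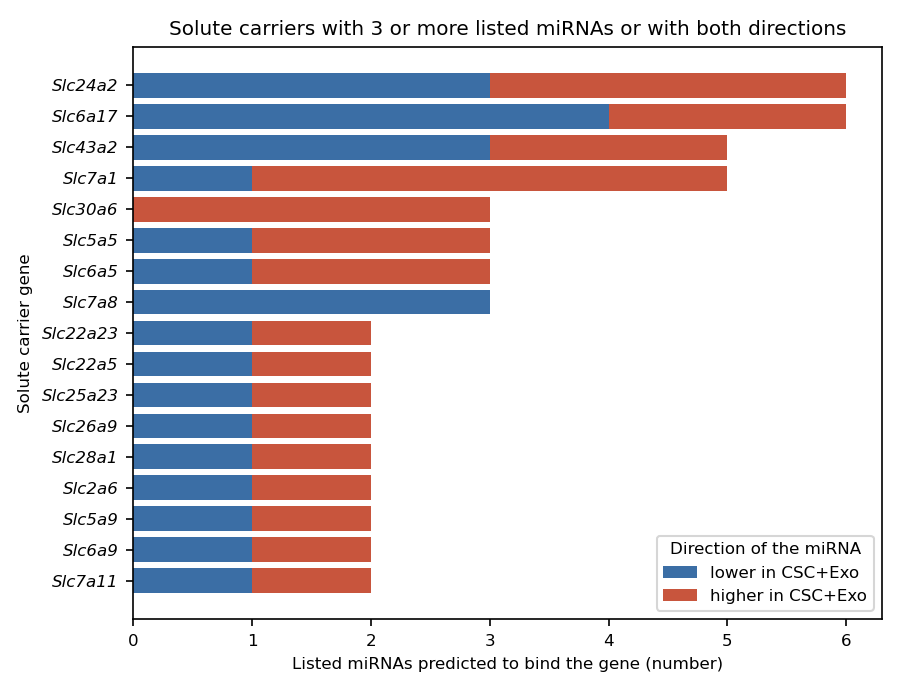
The 17 solute carriers predicted for 3 or more of the listed miRNAs or for miRNAs of both directions. Bars count the miRNAs (horizontal axis), with those lower in CSC+Exo at the left and those higher at the right of each bar; Slc24a2 and Slc6a17 reach 6, and Slc43a2 and Slc7a1 reach 5.

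Of the RefSeq genes, 103 of 382 protein-coding ones with a solute carrier symbol (26.96%) occurred in the target table under their current symbol. Slc8b1, listed there as Slc24a6, was not counted. Of all 20949 protein-coding genes whose symbol is not a LOC or RGD number, 3326 (15.9%) occurred in it. Of the 4260 symbols in the target table, 3328 were current symbols of protein-coding RefSeq genes, against 103 of the 104 solute carriers. The 2 shares were therefore not matched alike, and how much of their difference comes from this was not tested. The sources used here do not give the set of genes searched, so these shares describe an overlap of names and not a preference of the miRNAs. Other transport genes occurred as follows: 12 of 54 ABC transporters (22.2%), 5 of 15 Slco organic anion transporters (33.3%) and 8 of 17 genes of the Atp1, Atp2 and Atp7 pumps (47.1%). The lower miRNAs held 6 of the 18 ABC transporter pairs, the higher ones 12. For the pumps these numbers were 5 and 11, and for Slco genes 2 and 3.

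The signals of the miRNAs are given on the deposited log2 scale. miR-326-5p had 1.64, 2.41 and 4.72 in the 3 CSC+Exo arrays, against 6.04, 5.47 and 5.35 in the CSC arrays. The CSC+Exo arrays lay below the CSC arrays without overlap but were widely spread. Its difference was -2.70 ± 0.77 log2 (SE, n = 3 each; limma adjusted p = 0.288) and became -1.38 when all signals below 4 were raised to 4. miR-760-3p had 4.38, 4.40 and 4.07 in CSC+Exo, against 4.69, 4.91 and 5.52 in CSC. These groups did not overlap either, with a difference of -0.76 ± 0.24 log2 (SE; limma adjusted p = 0.291). miR-328a-5p had 6.85, 6.76 and 8.23 in CSC+Exo, against 9.16, 8.35 and 8.62 in CSC. CSC+Exo replicate 3 lay close to the lowest CSC array, and the difference was -1.43 ± 0.44 log2 (SE; limma adjusted p = 0.288). miR-207 had 0.54, 0.40 and 1.46 in CSC+Exo, against 2.76, 1.89 and 1.64 in CSC. It was called detected on 0 of 3 CSC+Exo arrays and on all 3 CSC arrays, so only a bound can be given. This bound is at least 1.31-fold lower in CSC+Exo, by the lowest detected signal of the listed miRNAs on each array. Detection calls are given for the 22 listed miRNAs alone, so that this lowest signal belongs to other miRNAs. The limma adjusted p, 0.288, is that of the deposited signals as fitted and not of the bound. miR-702-5p had 2.94, 2.75 and 3.21 in CSC+Exo, against 3.65, 3.82 and 3.19 in CSC. These groups overlapped, and the difference was -0.59 ± 0.21 log2 (SE; limma adjusted p = 0.310).

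Among the miRNAs with higher mean signals, miR-330-3p had 5.58, 5.82 and 5.88 in CSC+Exo, against 4.75, 4.97 and 5.29 in CSC. Its difference was 0.75 ± 0.18 log2 (SE; limma adjusted p = 0.248), and 0.28 after quantile normalization, which forces the arrays onto 1 distribution. miR-500-5p had 3.89, 4.42 and 4.18 in CSC+Exo, against 3.29, 3.30 and 2.88 in CSC. It was dim: its difference was 1.01 ± 0.20 log2 (SE; limma adjusted p = 0.228), and 0.20 when signals below 4 were raised to 4. miR-503-5p had 8.33, 8.44 and 8.32 in CSC+Exo, against 7.29, 6.54 and 5.69 in CSC. The 3 CSC+Exo arrays were close together while the CSC arrays were spread, with a difference of 1.85 ± 0.39 log2 (SE; limma adjusted p = 0.228), or 1.22 after quantile normalization. miR-362-5p had 7.10, 7.50 and 7.15 in CSC+Exo, against 6.25, 6.70 and 6.41 in CSC. miR-532-5p had 8.78, 8.92 and 8.71 in CSC+Exo, against 7.75, 8.26 and 7.92 in CSC. For both the groups did not overlap. Their differences were 0.80 ± 0.18 and 0.82 ± 0.17 log2 (SE; limma adjusted p = 0.248 and 0.228), and 0.27 and 0.29 after quantile normalization.

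Over all 728 mature miRNAs 0 had an adjusted p under 0.05 in limma (0%), and 106 had an unadjusted p under 0.05 (14.6%), 12.1% higher and 2.47% lower in CSC+Exo. The 17 miRNAs with solute carriers all had an unadjusted p under 0.05, which their listing had required of them in a like test. Of the 12 higher ones, 12 did not overlap between the groups, beside 15.9% of all mature miRNAs that were higher without overlap, and of the 5 lower ones 4 did not, beside 3.71%. The listing on the same arrays favours groups without overlap, so these counts add no support beyond it. Not all of the 12 were bright: miR-147, miR-201-5p, miR-362-3p and miR-500-5p had means under 5 in both groups. The median difference of the 12, which were listed for a difference on these arrays, was 0.84 log2. Bright miRNAs in general, the 171 with a mean of at least 5, were not chosen for a difference and had a median difference of 0.39. After quantile normalization these medians were 0.51 and 0.06. The 4 lower miRNAs other than miR-207, for which there is a bound alone, differed by -2.70 to -0.59 as deposited and by -3.01 to -0.72 after quantile normalization. In that setting 12 of the 17 had an unadjusted p under 0.05, while over all mature miRNAs 34 were higher and 30 lower at that limit, against 88 and 18 as deposited. With CSC+Exo replicate 3 left out, 23 of all 728 mature miRNAs had an adjusted p under 0.05 in limma, 11 higher and 12 lower. Among them were 5 of the 17, namely miR-326-5p, miR-328a-5p, miR-106b-3p, miR-181b-5p and miR-542-5p.

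**Figure D3:**
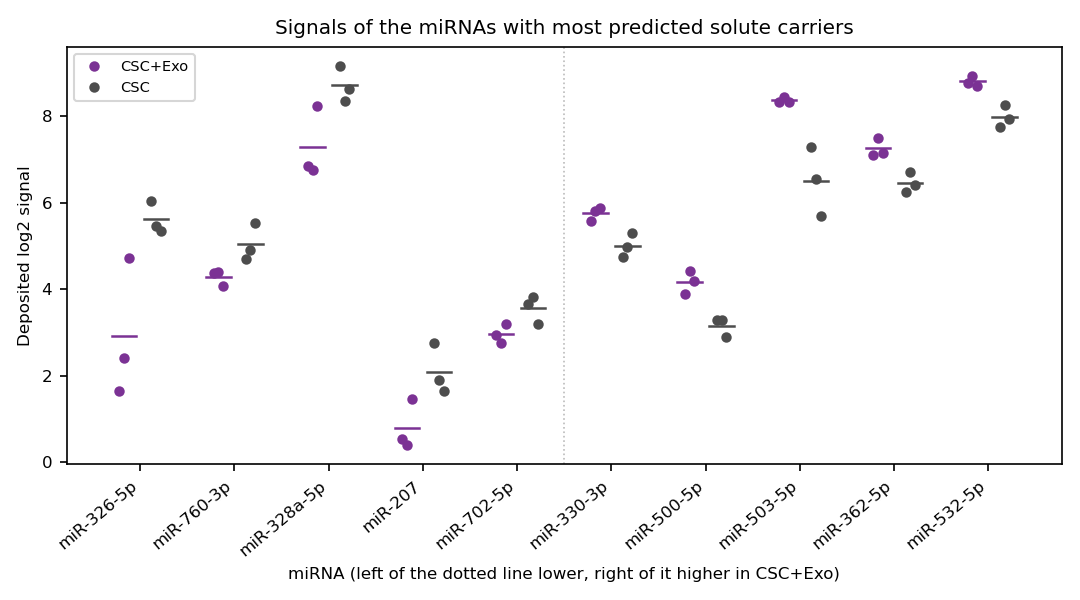
Deposited log2 signals (vertical axis) of the 10 miRNAs with most predicted solute carriers, with CSC+Exo arrays at the left and CSC arrays at the right of each position. Points are the 3 arrays of a group and lines their mean; miR-702-5p is the one of the 10 whose groups overlap.

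The predicted sites in solute carriers resembled those of the whole table in strength. A miRanda alignment score adds up matches, with weight on the seed, and the free energy is lower for a more stable duplex. The authors' note sheet gives the limits of the prediction as a score over 150 together with an energy below -20. The 155 sites had scores of 151 to 173 with a median of 156, the same median as over all sites. Their energies ran from -39.57 to -20.05, with a median of -24.94, against -24.83 over all sites. At the lowest score, 151, stood 25 of the 155 sites (16.1%, against 11.6% over all sites), and 19 had an energy above -21 (12.3%, against 11.3%). Sites that fell outside these limits were not analysed here.

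The 90 sites of lower miRNAs had a median energy of -26.67 and the 65 sites of higher miRNAs one of -22.80, against -26.54 and -23.02 over all sites of these miRNAs. The median GC content of the sites was 61.9% for lower and 52.2% for higher miRNAs, the same as over all sites. The medians of the score ran the other way, at 155 for lower and 158 for higher miRNAs. All 7 seed bases were in Watson-Crick pairs in 119 of the 155 sites (76.8%, against 69.6% over all sites), 33 sites had at least 1 G:U pair in the seed (21.3%, against 23.3%) and 3 had a mismatch or bulge there (1.94%, against 7.13%). Those 3 belonged to miR-106b-3p, in Slc25a23, Slc25a36 and Slc2a6. The longest unbroken run of Watson-Crick pairs was 12 in solute carrier sites and 15 over all sites, with a median of 8 in both.

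**Figure D4:**
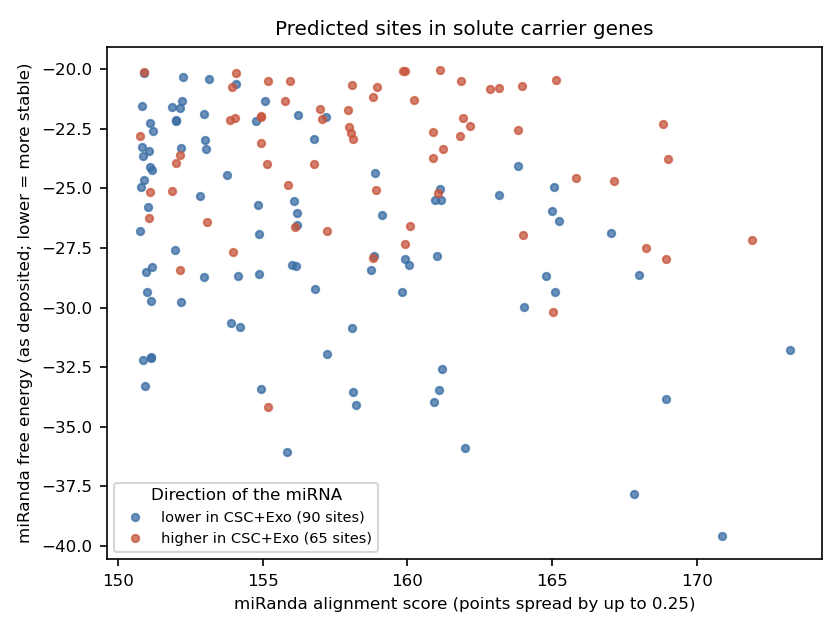
miRanda alignment score (horizontal axis) and free energy (vertical axis) of the 155 predicted sites in solute carrier genes, coloured by the direction of the miRNA in CSC+Exo. The lowest energy, -39.57, is that of Slc39a5 with the lower miR-328a-5p, and the highest score, 173, is that of Slc43a2.

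Amino acid and peptide carriers formed the second largest group, with 16 genes and 30 pairs, 19 of them with lower miRNAs. These numbers take in Slc7a6os, which has 1 pair and names no transporter. Slc43a2, a facilitated carrier of neutral amino acids, was predicted for 5 miRNAs: miR-207, miR-326-5p and miR-760-3p, which were lower, and miR-330-3p and miR-500-5p, which were higher. Its site for miR-207 had the highest score of the 155, 173, with an energy of -31.78. A site for miR-326-5p lay 11 bases before it, with a score of 168 and an energy of -28.63. Both are printed with the bases opposite the seed in capitals, as are all sites below.
Slc43a2, miR-326-5p, bases 138 to 156: ttcaaaaagccCTGCCCCt
Slc43a2, miR-207, bases 168 to 190: ctggtgtggagggacAGGAGAAg
Positions count from the start of the sequence that was searched for the gene, which the sources used here do not describe further. The 3 other sites of Slc43a2, for miR-330-3p, miR-760-3p and miR-500-5p, began at bases 723, 1694 and 2283 with scores of 157, 155 and 161.

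Slc7a1, the main carrier of arginine and other cationic amino acids in many cells, was predicted for 5 miRNAs, of which 4 were higher in CSC+Exo: miR-181b-5p, miR-500-5p, miR-503-5p and miR-542-5p. The fifth, miR-760-3p, was lower. Its 5 sites began at bases 1130, 2859, 3453, 3721 and 4185 and none overlapped. The sites for miR-181b-5p and miR-503-5p, with scores of 169 and 159 and energies of -23.75 and -25.05, lay 245 bases apart.
Slc7a1, miR-181b-5p, bases 3453 to 3475: agtcaaagtcagcggTGAATGTa
Slc7a1, miR-503-5p, bases 3721 to 3746: gcccagtctggccgtatcCGCTGCTc
miR-181b-5p had 11.70, 11.70 and 11.29 in CSC+Exo, against 10.83, 10.66 and 10.64 in CSC. The groups did not overlap, and the difference was 0.86 ± 0.16 log2 (SE, n = 3 each; limma adjusted p = 0.228). The site of Slc7a1 for miR-500-5p held a G:U pair in the seed and had a score of 152.

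Slc7a8, the light chain of a heteromeric exchanger of neutral amino acids, was predicted for 3 lower miRNAs, miR-326-5p, miR-328a-5p and miR-702-5p. Its site for miR-328a-5p had an energy of -36.05, the third lowest of the 155, although its seed held a G:U pair. Slc7a5, the light chain of a related exchanger that brings leucine into growing cells, was predicted for 2 higher miRNAs, miR-181b-5p and miR-330-3p, with scores of 162 and 161. Slc7a11, the cystine and glutamate exchanger that feeds glutathione synthesis, was predicted for miR-106b-3p, which was higher, and miR-207, which was lower, with scores of 152 and 155. Slc1a3, a glutamate carrier known from astrocytes, had a site for miR-326-5p with a score of 169 and an energy of -33.85.
Slc7a8, miR-328a-5p, bases 861 to 880: tcagctcctcccTGTCCCCc
Slc1a3, miR-326-5p, bases 637 to 657: atcaggaaggaccCTGCCCCt
The remaining genes with lower miRNAs alone were Slc1a5, Slc1a7, Slc15a2, Slc36a4, Slc38a2, Slc38a6, Slc38a10 and Slc7a7, and those with higher miRNAs alone were the peptide carrier Slc15a1 and Slc7a6os. Slc1 and Slc38, which carry glutamate, glutamine and other neutral amino acids, had 3 genes each and 7 pairs together, each with a lower miRNA.

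Inorganic ion exchangers and cotransporters were the largest group, with 22 genes and 30 pairs, 17 with lower and 13 with higher miRNAs. Of its 53 genes in RefSeq, 21 (39.6%) occurred among the targets under their current symbol, which leaves out Slc24a6. This compares with 26.96% over all solute carriers and 10.5% to 34.4% in the other groups, again with the searched genes unknown. Slc24a2, a potassium-dependent sodium and calcium exchanger known from neurons and cones, was predicted for 6 miRNAs, miR-207, miR-702-5p and miR-760-3p, which were lower, and miR-106b-3p, miR-330-3p and miR-503-5p, which were higher. Its 7 sites were spread from base 143 to base 5869. Their scores ran from 151 to 168. The highest was that for miR-106b-3p, and 2 of the 7 were for miR-760-3p, 1 of them with a G:U pair in the seed.
Slc24a2, miR-106b-3p, bases 5849 to 5869: gctatgagtcccaCAGTGCGa
Slc24a2, miR-760-3p, bases 1838 to 1858: aggacacagagctCAGAGCTg
Slc24a2, miR-760-3p, bases 1934 to 1954: tggcaacaggaggCAGAGCCa

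Among the sodium and proton exchangers, which set cell pH, Slc9a3 and Slc9a8 had lower miRNAs and Slc9a2, Slc9a4 and Slc9a5 higher ones. Slc12a5, the potassium and chloride exporter of mature neurons, had 2 sites for miR-760-3p, both with a G:U pair in the seed and with energies of -34.09 and -30.64, and 1 for miR-328a-5p. Slc12a3, the thiazide-sensitive sodium and chloride cotransporter of the kidney, had the second highest score, 172, for miR-330-3p. Slc26a1, a sulphate and oxalate exchanger, had the second lowest energy, -37.83, for miR-328a-5p.
Slc12a3, miR-330-3p, bases 959 to 982: cgtgtgcagtgacccgTGCTTTGa
Slc26a1, miR-328a-5p, bases 214 to 233: tgagcccactgcTGCCCCCt
Members with lower miRNAs alone included Slc12a2, Slc12a9, Slc24a6, Slc4a1, Slc4a2 and Slc8a3, a plasma membrane sodium and calcium exchanger. Those with higher miRNAs alone included Slc12a1, Slc12a4, Slc26a3 and Slc4a3, an anion exchanger of heart and brain. Slc26a9, a chloride transporter of epithelia, was predicted for miR-147, which was higher, and for miR-760-3p, which was lower.

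Neurotransmitter carriers and vesicular loaders had 9 genes and 18 pairs, 10 with lower miRNAs. As in all groups here, genes were placed by family number and not by the function of each gene. Slc6a17, a carrier of neutral amino acids on synaptic vesicles, was predicted for 6 miRNAs, but its 6 sites covered only 4 separate stretches. The sites for miR-362-5p and miR-500-5p shared 26 bases, and those for miR-326-5p and miR-328a-5p shared 19.
Slc6a17, miR-362-5p, bases 80 to 106: caccagacccaggccagtcCAAGGATt
Slc6a17, miR-500-5p, bases 81 to 106: accagacccaggccagtcCAAGGATt
Slc6a17, miR-326-5p, bases 1018 to 1037: caggtaaactcaCTGCCCCc
Slc6a17, miR-328a-5p, bases 1019 to 1038: aggtaaactcacTGCCCCCt
Its scores ran from 151 to 164, the highest for miR-362-5p. Slc6a5 and Slc6a9 carry glycine. Slc6a5 was predicted for miR-503-5p and miR-532-5p, which were higher, and miR-760-3p, which was lower, with scores of 158, 154 and 156, and Slc6a9 for miR-18a-5p, which was higher, with a score of 169, and miR-760-3p with 152. Slc6a2, which takes up noradrenaline, and Slc32a1, which loads inhibitory transmitters into vesicles, were predicted for miR-326-5p. Slc17a3, Slc17a8 and Slc18a1 had higher miRNAs alone.

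Overlapping sites of different miRNAs occurred in 4 of the 29 solute carriers with 2 or more miRNAs (13.8%, against 237 of 1307 genes, 18.1%, over the table). All 5 overlaps joined miRNAs of 1 direction, as did 220 of the 252 overlaps over all predicted targets. Besides Slc6a17 they lay in Slc5a5, with miR-362-5p and miR-500-5p at the same 23 bases, and in Slc38a6 and Slc4a1, with 17 bases shared by miR-326-5p and miR-328a-5p. The pair miR-326-5p and miR-328a-5p had 5 solute carriers in common, 23.8% of those of miR-326-5p and 27.8% of those of miR-328a-5p, and 3 of these 5 had overlapping sites. Over all predicted targets 156 genes were in common, and 99 of them had overlapping sites (63.5%). For miR-362-5p and miR-500-5p these numbers were 2 of 2 in solute carriers and 45 of 49 over the table. A count of miRNAs for a gene can therefore be higher than the count of its separate sites.

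Sugar carriers had 11 genes and 15 pairs, 8 with lower miRNAs. Slc2a4, the insulin-regulated glucose transporter of heart, muscle and fat, was predicted for miR-500-5p with a score of 157 and an energy of -22.09. Slc2a1, the widely expressed glucose transporter, was predicted for miR-328a-5p with a score of 157 and an energy of -31.94, through a seed with a G:U pair. Slc2a6 was predicted for miR-106b-3p, with the fifth lowest energy of the 155, -34.16, and a seed mismatch, and for miR-326-5p. Slc2a5, Slc2a9 and Slc45a3 had lower and Slc2a10 and Slc45a4 higher miRNAs alone. Of the Slc5 genes that this group takes in by family, Slc5a5 carries iodide and Slc5a7 choline. Slc5a5 was predicted for miR-362-5p, miR-500-5p and the lower miR-760-3p, Slc5a7 for the lower miR-207, and Slc5a9 for miR-362-5p and miR-760-3p.
Slc5a5, miR-362-5p and miR-500-5p, bases 446 to 468: cagagcacagagctcCAAGGATt
Slc2a6, miR-106b-3p, bases 142 to 164: ccagcaggcagcccgCAGTGCTg

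Metal carriers had 11 genes and 16 pairs, 8 with lower and 8 with higher miRNAs, and none of the genes had both. Slc30a6, a zinc carrier of the secretory pathway, was the one solute carrier predicted for 3 higher miRNAs and no lower one: miR-330-3p, miR-362-3p and miR-500-5p, with scores of 165, 154 and 157 and energies between -21.66 and -20.47. Slc11a2, which takes up ferrous iron, was predicted for miR-18a-5p and, through 2 sites, for miR-362-3p. Slc39a5, a zinc importer, had the lowest energy of the 155 sites, -39.57, with a score of 171 for miR-328a-5p.
Slc39a5, miR-328a-5p, bases 553 to 572: catgcccctccgTGCCCCCc
Slc11a2, miR-362-3p, bases 135 to 156: gaaacactggggtgGGTGTGTg
Slc11a2, miR-362-3p, bases 1987 to 2009: ggcggggttgggcagGGTGTGTt
miR-362-3p had 3.58, 4.39 and 4.13 in CSC+Exo, against 2.58, 3.00 and 1.58 in CSC. Its groups did not overlap, with a difference of 1.65 ± 0.40 log2 (SE; limma adjusted p = 0.248), but of 0.17 when signals below 4 were raised to 4. Slc30a7, Slc39a6 and Slc39a8 also had higher miRNAs alone, while Slc30a2, Slc39a1, Slc39a13 and the magnesium carriers Slc41a1 and Slc41a2 had lower ones alone.

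Mitochondrial carriers had 10 genes and 11 pairs, so that 9 of the 10 were predicted for 1 miRNA. Slc25a23, a calcium-regulated carrier of ATP and phosphate, was predicted for miR-106b-3p and the lower miR-760-3p. Slc25a29, Slc25a34, Slc25a37, Slc25a42 and Slc25a44 had lower miRNAs, among them Slc25a37, which brings iron into mitochondria for haem synthesis, with a score of 164 for miR-207. Slc25a17, Slc25a22, Slc25a25 and Slc25a36 had higher ones. The Slc35 family, grouped as carriers of nucleotide sugars, had 7 genes: Slc35a2, Slc35c1, Slc35c2 and Slc35e3 with lower and Slc35b4, Slc35e1 and Slc35f1 with higher miRNAs.

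Carriers of monocarboxylates and organic ions had 7 genes and 9 pairs. Slc16a3, which exports lactate from glycolytic cells, was predicted for miR-330-3p with a score of 151, the lowest in the table, and a G:U pair in the seed. Slc22a5, the carnitine carrier on which fatty acid oxidation in the heart depends, was predicted for miR-500-5p with a score of 163 and for the lower miR-326-5p with 151. Slc22a14 had a score of 169 for miR-500-5p.
Slc22a14, miR-500-5p, bases 370 to 396: tggagcacaaggataagagCAAGGATt
Slc22a23 was predicted for miR-330-3p and miR-760-3p, and Slc16a12, Slc22a3 and Slc22a12 had lower miRNAs alone. Among the small groups, Slc13a2, Slc19a1, Slc23a3, Slc29a3, Slc34a3, Slc10a2 and Slc44a1 had lower miRNAs alone, Slc13a3, Slc14a2 and Slc19a2 had higher ones alone, and the nucleoside carrier Slc28a1 had both. Slc13a2 and Slc13a3 carry dicarboxylates such as succinate, although their family was grouped with phosphate and sulphate.

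**Figure D5:**
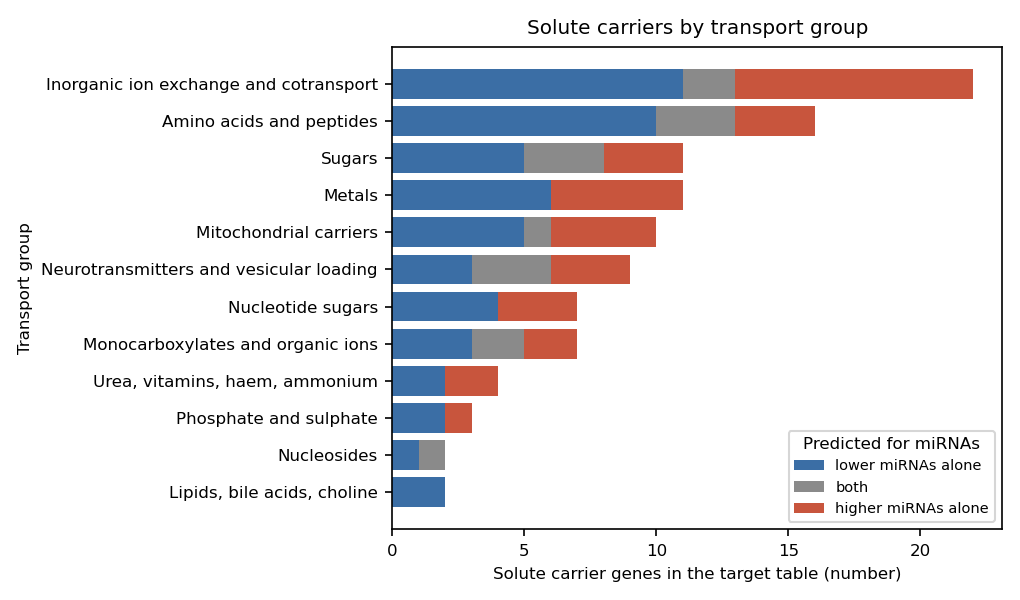
Number of solute carriers in the target table (horizontal axis) by transport group, divided into those predicted for lower miRNAs alone, for both, and for higher miRNAs alone. Ion exchangers and cotransporters have 22 genes and amino acid and peptide carriers 16, 10 of them with lower miRNAs alone.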

How the data were processed

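miRNAs were measured on Affymetrix miRNA arrays, 3 per group, from 1 ug of total RNA per sample per the labels' protocols. Per the file headers, the deposited values come from RMA and the calls from detection above background; MAS5 and Affymetrix Expression Console stand in the submitters' processing notes, so that the summary method is uncertain. The deposited signals are log2, per the authors' note sheet, and those of the listed miRNAs were identical to the value table (largest difference 0). The authors' deposited table also holds p-values, geometric mean intensities and fold ratios, which were not used. The deposited miRanda score and energy of each site were used as given, without a stated version. Of the site lines, 18 were emptied for this work; all 151 solute carrier pairs kept a site.

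The 728 mature probe sets were tested with limma 3.58.1 in R 4.3.3 (lmFit and eBayes, CSC+Exo minus CSC, no covariate, Benjamini-Hochberg over all 728, threshold 0.05), after a check on simulated arrays. Direction was the sign of the difference of mean signals. Site pairing was read from the deposited alignments with Python 3.11.15 and pandas 2.3.3. Alternatives were other normalizations, filters, variance models, a replicate block, leaving out each array, and stricter sites. Solute carriers are named except for 3 that are not reported here; sites are described for genes with at least 3 miRNAs, for the 5 highest scores, for the 5 lowest energies and for repeated sites, and other genes named with values were chosen after their values were seen. Members, groups and lists were chosen with earlier results of these data known.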

Additional observations from a re-analysis of the deposited data

How the results depend on the processing

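Of the counts of solute carriers, those by direction did not change when directions were taken after quantile normalization. With sites at or above the median score of the table, 68 genes, 43 pairs of lower miRNAs, 34 genes with lower miRNAs alone and 4 with both were left. There the share of pairs of lower miRNAs was 49.4%, below the 52.1% over the table, whereas it lay above the table's share among all pairs. With sites at or below the median energy there were 61 genes, 20 pairs of higher miRNAs, 13 genes with higher miRNAs alone and 6 with both, and the share of pairs of lower miRNAs was 74.4%, against 72.5% over the table. Counted with all sites over genes with any lower miRNA, in place of pairs, the share was 66.3%, against 63.1%. Of 3 alternatives chosen after seeing the data, sites with 7 Watson-Crick seed pairs left 9 genes with both. Leaving out Slc7a6os moved the share of pairs of lower miRNAs to 58.0%, against 54.7% over the table. Keeping miRNAs detected on all 6 arrays moved it to 52.6%, against 48.9% over the table.

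The number of mature miRNAs with an adjusted p under 0.05 was 0 in all settings with 6 arrays, and 0 to 23 when 1 array was left out: 23 without CSC+Exo replicate 3 and 1 without CSC replicate 1. At an unadjusted p under 0.05 in limma there were 106 of 728 in the main setting and 64 of 728 after quantile normalization. With a mean of at least 2 there were 61 of the 258 tested. With signals under 4 set to 4 there were 70 of the 219 tested. Both are larger shares than in the main setting. With 1 array left out there were 38 to 145 of 728 (38 without CSC+Exo replicate 2, 57 without CSC+Exo replicate 1). Of the 17 miRNAs with solute carriers, 0 to 5 had an adjusted p under 0.05 and 13 to 17 an unadjusted one with 1 array left out. The replicate block gave 0 miRNAs with an adjusted p under 0.05 in limma, and 111 unadjusted. Same-numbered arrays correlated at 0.04, 0.32 and 0.29 in their deviations. Arrays of different number were not compared in this way, so these values cannot decide whether the numbers mark pairs. The main setting did not take them as pairs. No direction reversed in any setting that was run. miR-201-5p, miR-207 and miR-702-5p could not be fitted with signals under 4 set to 4. Some settings remove sites, probe sets or arrays, and the cause of these changes was not tested.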
